A study of Mus musculus with 2 samples.

Results

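The nuclei described here were those of the neuron.2 cluster of mouse brainstem that lay outside subcluster 12 of the deposited clustering. They were chosen by 2 deposited labels, the cluster name neuron.2 and any subcluster number other than 12 at resolution 0.8. No single gene was used to choose them, but both labels come from clusters made from these same counts. The rule gave 368 of 18281 nuclei, 234 from the WT library and 134 from the HET library, and all 368 carried the deposited subcluster number 14. The 449 neuron.2 nuclei in subcluster 12 and the 10694 nuclei of the remaining neuronal clusters served for comparison.

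The study profiled single brainstem nuclei of a mouse model of Dravet syndrome, a childhood epilepsy in which one copy of *Scn1a*, the gene of the sodium channel Nav1.1, is impaired. The HET library came from *Scn1a* A1783V/WT knock-in mice and the WT library from wild-type mice. Both libraries were female, on a C57BL/6J background and taken at postnatal day 41. The knock-in allele came from crossing males with a floxed-stop allele to females with Sox2-Cre, a driver active in the whole early embryo, so the allele was not limited to neurons. A seizure before collection was not a criterion, and whether animals were pooled is not stated in the sources used here. There was 1 library per genotype, so no difference between WT and HET could be tested, and a difference between libraries cannot be told apart from a difference between genotypes. The intervals given here are 95% exact intervals for counting error only.

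Excitatory neurons of the hindbrain load glutamate into synaptic vesicles with transporters of the Slc17 family, and inhibitory neurons use GABA, glycine or both. During development, combinations of transcription factors divide hindbrain neurons into classes: Lbx1 marks several dorsal classes, Tlx3, Lmx1b and Prrxl1 are known from excitatory neurons of the dorsal hindbrain and spinal cord, many of which relay or modulate sensory signals, and Pax2 is known from inhibitory neurons. Hox genes record the position of a neuron from front to back, those with higher numbers being used further toward the tail.

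The neuron label fitted the markers of the nuclei. *Rbfox3*, which encodes the nuclear protein NeuN, had 331 CPM (unique molecular identifiers, UMIs, of a gene per 1000000 UMIs of the set) in WT and 417 in HET, against 27.9 in oligodendrocyte nuclei, and *Snap25*, a protein of vesicle fusion, had 609 and 725 CPM. The deposited reference labels called all 368 nuclei neurons, and a finer reference label called 357 of them Neurons and 11 Neurons activated. The summed oligodendrocyte list of 11 genes was 754 CPM in WT and 817 in HET, compared with 628 and 773 in other neurons and 17218 and 19076 in oligodendrocyte nuclei. All 11 genes had UMIs in these nuclei. The astrocyte list summed to 424 and 452 CPM against 914 and 943 in other neurons, the choroid plexus list to 506 and 215 against 1046 and 831, and the microglia list to 207 and 221 against 201 and 214. All nuclei in the deposited table were listed as singlets, and the median doublet score was 0.158 in WT and 0.123 in HET.

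The nuclei held 1812386 UMIs in WT and 1098613 in HET, with medians of 6909 and 7519.5 UMIs per nucleus. Subcluster 12 was shallower, at 4742 and 5780, and the other neurons were deeper, at 8004 and 8521.5. Of 23 barcodes found in both libraries, 1 belonged to these nuclei. They made up 3.82% of neuronal nuclei in WT (3.36 to 4.34) and 2.48% in HET (2.09 to 2.94), and 2.53% (2.22 to 2.87) and 1.49% (1.25 to 1.76) of all nuclei. The 2 intervals did not overlap, but with 1 dissection per genotype the share of a cell group was not tested. Within neuron.2 these nuclei were 43.2% of the WT nuclei (39.0 to 47.5) and 48.7% of the HET nuclei (42.7 to 54.8), and those intervals overlapped.

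The grouping was stable over the resolutions of the deposited clustering that defined it. These resolutions are not independent of the choice of nuclei, and a second deposited clustering did not keep the nuclei together, as given below. At each of the 12 resolutions from 0.4 to 1.5 all 368 nuclei sat in 1 cluster of 374 to 405 nuclei that held no subcluster 12 nucleus, and at 0.1, 0.2 and 0.3 they shared a cluster with all 449 subcluster 12 nuclei. The clusters were made from the same counts, so the gene differences between clusters below are a description with no test. A gene was counted as higher or lower when its CPM, from UMIs summed per library, differed at least 2-fold in both libraries.

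Against the other neuronal nuclei, 361 of 17155 genes were higher (2.1%) and 810 were lower (4.72%), with a median log2 ratio of -0.13 over all genes. The 15 genes with the largest ratios included transcription factors, membrane and lipid proteins, a growth factor, a peptide, a cilium protein and noncoding genes. *Dpp10*, an accessory subunit of Kv4 potassium channels (chr1:123321471-124045559, minus strand, GRCm38), was the gene with the second-most UMIs after the nuclear RNA *Malat1*. It had 13146 CPM in WT and 16413 in HET, against 1793 and 1925 in other neurons and 2471 and 3000 in subcluster 12, a log2 ratio of 2.95 (2.94 to 2.97) over other neurons. It was found in 99.7% of the nuclei, and the next neuronal subcluster, neuron.8:31, reached 3473 CPM. The other genes of highest level were *Meg3*, a noncoding RNA, at 9672 and 9253 CPM against 11738 and 11143 in other neurons, the adhesion protein gene *Lsamp*, at 6509 and 7730 against 6979 and 8083, and the receptor phosphatase gene *Ptprd*, at 6618 and 7261 against 3306 and 3785.

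*Maf*, a basic leucine zipper transcription factor (chr8:115682942-115707794, minus strand), had 955 CPM in WT and 573 in HET, against 77.2 and 63.2 in other neurons. Both libraries stood far above the other neurons, and 91.8% of the nuclei held a *Maf* UMI. The related factor *Mafa* (chr15:75745490-75748228, minus strand) had the largest ratio of all genes, 33.1 and 16.4 CPM against 0.952 and 0.624, a log2 ratio of 5.08 (4.61 to 5.54), although it was found in only 59 of 368 nuclei. *Maf* and *Mafa* differed in their second location: *Maf* was at 28.6 and 20.3 CPM in subcluster 12, under the other neurons, whereas *Mafa* was at 20.8 and 12.4 there.

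*Ebf1*, an Ebf family factor of neuronal differentiation, was at 3266 CPM in WT and 2844 in HET and was present in 100% of the nuclei. It was at 284 and 294 CPM in other neurons, and higher still in subcluster 12 at 4499 and 3818. *Gm12158*, an antisense gene inside *Ebf1*, followed it at 91.0 and 123 CPM, and since the sources used here do not say that counting used strand, its reads cannot be told apart from those of *Ebf1*. *Prrxl1* (chr14:32599407-32649246, plus strand), a homeodomain factor of sensory relay neurons, was at 48.0 and 41.9 CPM compared with 3.45 and 1.75.

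The remaining leading genes reached lower levels. *Kcnh8*, a voltage-gated potassium channel of the Elk type, had 499 CPM in WT and 617 in HET against 41.5 and 39.9 in other neurons. *Atp10a*, a phospholipid flippase, had 260 and 249 against 15.9 and 20.9, and *Sntb1*, a syntrophin that anchors membrane proteins, had 162 and 204 against 8.64 and 10.3. *Bmp6*, a bone morphogenetic protein ligand, had 146 and 113 against 8.67 and 14.4, and it was the only 1 of the 15 genes for which a subcluster outside neuron.2 stood above these nuclei, neuron.3:27 at 204 CPM. *Tnfaip8l3*, a phosphoinositide carrier, *Spef2*, a protein of motile cilia and sperm tails, and *Plin2*, a lipid droplet coat protein, had log2 ratios of 4.69, 4.57 and 3.78, and *Il20ra* and the noncoding gene *Gm13417* had ratios of 3.48 and 3.43 on 40 and 29 UMIs. In each of the 15 genes both libraries were above both libraries of the other neurons, which the 2-fold rule within each library had nearly fixed beforehand.

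**Figure D1:**
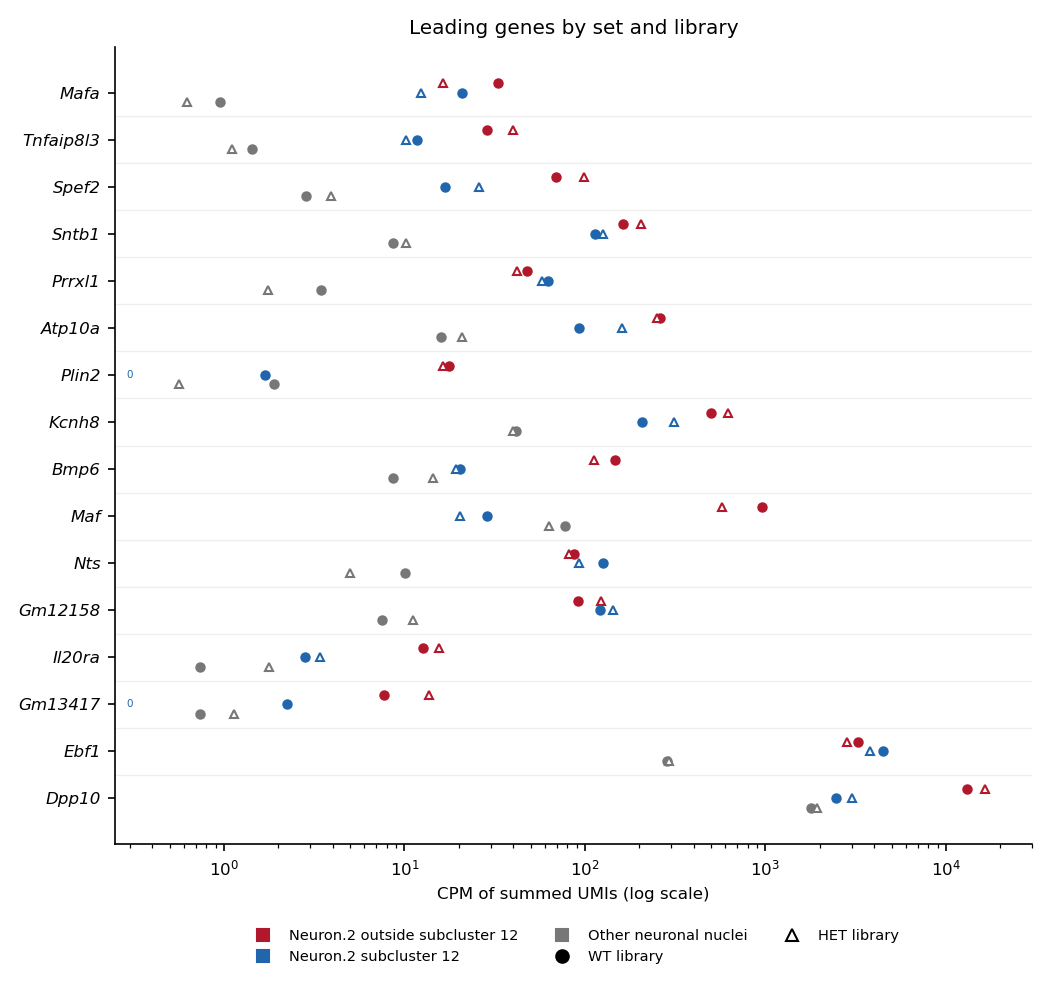
CPM of summed UMIs (log axis) for the 15 genes with the largest ratio over other neurons and for *Dpp10*, in neuron.2 outside subcluster 12 (red), subcluster 12 (blue) and other neuronal nuclei (grey); circles are the WT and triangles the HET library, and a printed 0 marks a library with no UMI. *Maf*, *Dpp10*, *Bmp6* and *Plin2* separate red from blue, while *Ebf1*, *Gm12158*, *Prrxl1* and *Nts* are as high or higher in subcluster 12.

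Among developmental regulators, the 38 measured hindbrain lineage factors held 6 higher and 15 lower genes, with a list median of -1.62 against -0.13 over all genes. The 6 higher factors were *Ebf1*, *Ebf2*, *Ebf3*, *Lmx1b*, *Lbx1* and *Tlx3*, and the last 3 are among the dorsal class factors named above. *Lmx1b* was at 34.2 CPM in WT and 52.8 in HET, compared with 9.21 and 11.2 in other neurons. Over both libraries it was higher in the small subcluster neuron.7:30, at 100 CPM against 41.2 here. *Lbx1* was at 9.38 and 9.10 against 1.36 and 0.780, found in 7.34% of nuclei, and *Tlx3* was at 7.72 and 4.55 against 1.53 and 1.19. The 15 lower factors included *Pax2*, named above from inhibitory neurons, at 3.86 and 3.64 CPM against 45.1 and 35.7. *Foxp2* had 3.31 and 5.46 against 109 and 64.4, a log2 ratio of -4.41, and *Lhx1*, *Lhx5*, *Pax8*, *Onecut1*, *Onecut2* and *Zfhx3* were among the others. In the whole list, 7 factors had no UMI in these nuclei, *Atoh1*, *Barhl1* and *Barhl2* among them.

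The 16 measured Hox genes held 6 higher and 0 lower genes, with a median of 1.06. All 6 were from the HoxB cluster: *Hoxb2*, *Hoxb4*, *Hoxb5*, *Hoxb6*, *Hoxb7* and *Hoxb8*. *Hoxb6* was at 46.9 CPM in WT and 37.3 in HET, against 11.9 and 4.87 in other neurons, and *Hoxb8* was at 14.3 and 8.19 against 4.26 and 1.42. Subcluster 12 was at the same or higher levels for these genes, with 70.1 and 76.7 CPM of *Hoxb6*, and none of the 13 Hox genes measured against it was called. The midbrain list of *Gata2*, *Gata3*, *Otx2* and 5 others summed to 2.76 CPM in WT and 2.73 in HET, against 18.6 and 16.8 in other neurons.

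Transmitter genes placed most of the nuclei on the glutamate side. *Slc17a6*, the vesicular glutamate transporter VGLUT2 (chr7:51622006-51671119, plus strand), was at 167 CPM in WT and 185 in HET, compared with 68.8 and 79.9 in other neurons and 129 and 158 in subcluster 12. It was found in 67.4% of the nuclei and, after each nucleus was thinned to 1000 UMIs, in 16.3%. Oligodendrocyte nuclei, which should lack the gene and gave the background of free RNA, had 12.3% and 4.41%, with a median of 2807 UMIs against 7057 here.

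*Slc17a8*, which encodes VGLUT3 (chr10:89574020-89621253, minus strand), was the 1 glutamate transporter gene called against subcluster 12. It was at 23.7 CPM in WT and 16.4 in HET, against 2.80 and 2.26 in subcluster 12 and 2.62 and 3.22 in other neurons. Over both libraries the small subcluster neuron.7:30 stood above these nuclei, at 24.6 CPM against 21.0. *Slc17a8* was found in 44 nuclei, 34 of which also held *Slc17a6*, where 29.7 would be shared if the genes were unrelated. The thinned share of *Slc17a8* was 1.90%, against 0.0893% in oligodendrocyte nuclei. *Slc17a7*, VGLUT1, was lower than in other neurons at 1.1 and 8.19 CPM against 7.33 and 21.0.

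All 4 GABA genes were lower than in other neurons, with a list median of -2.45, and 2 of the 4, *Gad2* among them, were also lower than in subcluster 12, with a median of -1.18. *Gad2*, a GABA-synthesizing enzyme, was at 9.93 CPM in WT and 8.19 in HET against 71.6 and 69.9, and its thinned share of 0.846% was under the 2.15% of oligodendrocyte nuclei. *Gad1* and *Slc32a1* had thinned shares of 0.647% and 1.57%, also under the oligodendrocyte shares of 1.01% and 3.11%, so these levels could not be told apart from background. The oligodendrocyte nuclei were shallower, as given above, so the comparison is a rough one. The glycine transporter *Slc6a5* was at 14.9 and 16.4 CPM against 102 and 67.6, with a thinned share of 1.47% against 2.12%. Counted by nucleus, 56.8% (51.6 to 61.9) held UMIs of glutamate transporter genes only, 8.97% of inhibitory genes only, 14.1% of both and 20.1% of neither. The glutamate-only share was 26.3% in other neurons, 39.0% in subcluster 12 and 11.3% in oligodendrocyte nuclei. In these nuclei it was 53.8% in WT and 61.9% in HET with overlapping intervals (47.2 to 60.4 and 53.2 to 70.2). The inhibitory-only share was 42.9% in other neurons, 12.7% in subcluster 12 and 18.3% in oligodendrocyte nuclei, so the 8.97% here could not be told apart from background. The share with both was 16.6%, 11.6% and 3.10% in the same order. These shares were not thinned and depend on depth.

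Of 21 measured neuropeptide genes 3 were higher and 0 lower. *Nts*, neurotensin (chr10:102481756-102490486, minus strand), was at 87.2 CPM in WT and 81.9 in HET compared with 10.0 and 4.99 in other neurons, and no other neuronal subcluster outside neuron.2 was above 11.5. *Cck*, cholecystokinin, was at 54.1 and 41.0 CPM against 12.6 and 7.0, and *Nppc*, C-type natriuretic peptide, was at 48.0 and 23.7 against 14.4 and 8.42. Their thinned shares were 7.39%, 5.48% and 4.39%, against 1.89%, 2.37% and 1.82% in oligodendrocyte nuclei. *Sst*, *Penk* and *Tac1* had thinned shares of 3.75%, 3.18% and 1.54%, under the oligodendrocyte shares of 8.20%, 4.60% and 2.23%. Their levels could not be told apart from background by this comparison of sets that differed in depth, and *Penk* was uneven within these nuclei, as given below. *Th*, tyrosine hydroxylase, was higher at 12.7 and 11.8 CPM against 1.06 and 2.30, in 7.88% of nuclei, and it was also higher in subcluster 12 than in other neurons. The noradrenergic markers *Dbh*, *Slc6a2* and *Phox2a* were at 0 here, and *Ddc*, the next enzyme of the pathway, was lower at 1.1 and 0.910.

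Receptor genes differed from other neurons in both directions. Of the 12 GABA-A receptor subunits, which form the main inhibitory chloride channels, 4 were higher and 2 lower. *Gabra5* was at 331 CPM in WT and 344 in HET against 61.5 and 63.3 in other neurons, and *Gabra2* was at 434 and 492 against 142 and 171. *Gabra4* had a log2 ratio of 2.25, while *Gabrg1* and *Gabrg3* had ratios of -2.55 and -1.47.

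*Glra1*, the adult glycine receptor subunit, was at 580 CPM in WT and 437 in HET against 237 and 178, and 92.1% of the nuclei held it. These nuclei had more of the receptor transcript and less of the glycine transporter transcript than other neurons. Among glutamate receptors, *Grin2a*, an NMDA subunit, was at 1142 and 1445 CPM against 488 and 511, and *Grm5*, a metabotropic receptor, was at 2269 and 2319 against 990 and 1085. The kainate receptor genes *Grik1*, *Grik2* and *Grik3* were lower, with log2 ratios of -2.22, -1.91 and -3.63, which were 3 of the 7 kainate and delta receptor genes. Of 9 measured serotonin receptor genes 5 were lower, led by *Htr2c* at 105 and 85.6 CPM against 738 and 736, and 1, *Htr1b*, was higher.

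Of the 9 sodium channel genes 0 were called against other neurons, where 2.1% of all genes were higher and 4.72% lower. *Scn1a*, the gene of the model (chr2:66270778-66440840, minus strand), was at 565 CPM in WT and 634 in HET, compared with 429 and 493 in other neurons, 332 and 319 in subcluster 12 and 73.5 in oligodendrocyte nuclei. It was found in 94.6% of the nuclei. The knock-in changes a codon, so the level of the transcript does not check the genotype. *Hcn4*, a pacemaker channel, was higher at 15.4 and 15.5 CPM against 4.47 and 6.40, and *Hcn3* was lower at 1.66 and 4.55 against 11.9 and 11.6.

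**Figure D2:**
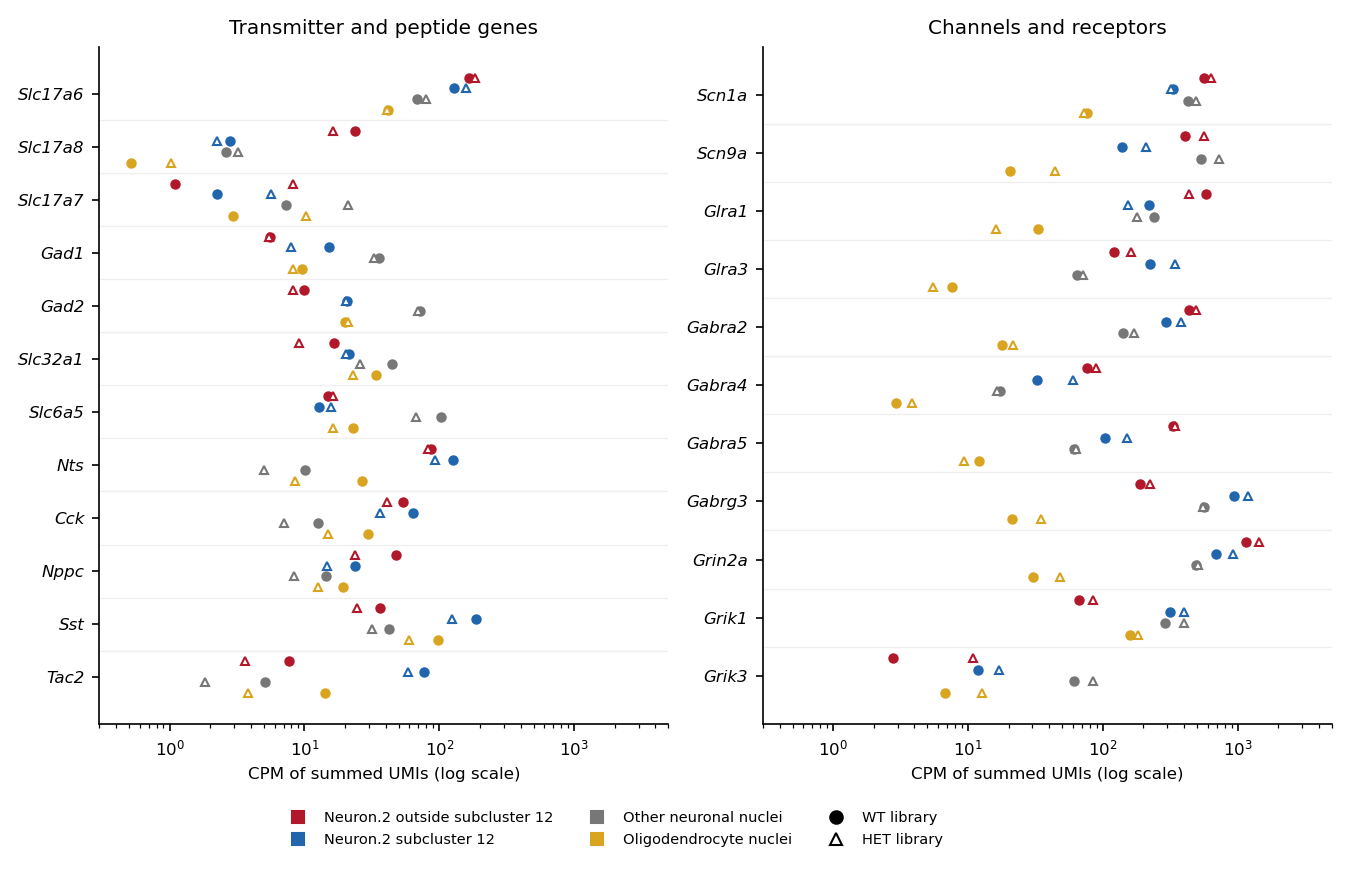
CPM of summed UMIs (log axes) for transmitter and peptide genes (left) and channel and receptor genes (right) in 4 sets of nuclei, with oligodendrocyte nuclei (yellow) as the level of free RNA; circles are the WT and triangles the HET library. *Slc17a6*, *Slc17a8*, *Glra1*, *Gabra5* and *Grin2a* are highest in red, and the red points of *Gad1*, *Gad2* and *Slc32a1* lie at or under the yellow ones.

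The genes with the smallest ratios to other neurons were mostly near absence. *Hcrtr2*, an orexin receptor, had 6 UMIs in WT and 0 in HET against 44.3 and 70.0 CPM in other neurons, a log2 ratio of -4.78 (-6.23 to -3.66). *Piezo2*, a mechanically gated channel, *Sall3*, a zinc finger factor, *Hsd17b2*, a steroid dehydrogenase, *Vwa5b1* and the noncoding genes *Gm20646*, *Gm36560*, *Gm30373* and *Gm44601* each had 1 UMI in all and *Gm2164* had 2. For *Piezo2* the log2 ratio was -5.06 with an interval from -10.37 to -2.58. Oligodendrocyte nuclei held more *Piezo2* than any of the neuronal sets, at 79.3 CPM.

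Subcluster 12 is the other member of neuron.2, and it shared some of the profile. Of the 361 genes higher here than in other neurons, 128 (35.5%) were also higher in subcluster 12, which was 20.9% of the 612 genes higher there. *Ebf1*, *Prrxl1*, *Nts*, *Cck*, *Lbx1*, *Lmx1b*, *Grm5*, *Gabra2* and the 5 HoxB genes from *Hoxb4* to *Hoxb8* were among the shared ones. Directly against subcluster 12, 475 of 13191 genes were higher (3.6%) and 687 were lower (5.21%), with a median of -0.03. The 105 genes higher than in both sets were 29.1% of the first list and 22.1% of the second, and they included *Maf*, *Dpp10*, *Bmp6*, *Tnfaip8l3*, *Spef2*, *Plin2*, *Il20ra*, *Rbm47*, *Slc17a8*, *Glra1* and *Gabra5*.

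*Maf* was the protein-coding gene with the largest ratio over subcluster 12, at a log2 ratio of 4.97 (4.62 to 5.34). The genes ranked with it were mostly noncoding. *4930488N15Rik*, a noncoding gene on chromosome 8 beside *Maf*, was at 92.7 CPM in WT and 147 in HET against 2.24 and 6.77, and *Gm15655*, antisense to *Maf*, was at 27.0 and 36.4 against 1.68 and 0. *Gm48606* and *Gm44079* each had 1 UMI in subcluster 12, so their log2 ratios of 5.30 and 5.08 had wide intervals (2.75 to 10.64 and 2.52 to 10.43). *Rbm47*, an RNA-binding protein, was at 17.7 and 16.4 CPM against 1.12 and 0, and *Map3k20*, a stress-activated kinase, was at 14.3 and 15.5 against 0.561 and 1.13 but near the other neurons at 14.2 and 12.9. *Gm26713*, *Gm38407* and *Gm28501* completed the 10 largest ratios.

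*Adarb2*, an RNA-binding relative of the RNA-editing enzymes, was picked after its values were seen. *Adarb2* was at 3151 CPM in WT and 3770 in HET, against 535 and 843 in subcluster 12 and 511 and 630 in other neurons. It was nearly matched by 1 small subcluster elsewhere, neuron.1:24, at 3245 CPM.

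The 10 genes with the smallest ratios to subcluster 12 were close to absent in these nuclei. *Gna14*, a G protein subunit (chr19:16435762-16610820, plus strand), had 2 UMIs here against 196 there, a log2 ratio of -6.74 (-9.80 to -4.87). *Nmu*, neuromedin U, had 4 UMIs against 264, and *4930432L08Rik* on the opposite strand of *Nmu* had 2 against 138. *Skor2*, *Tll2*, *Clic5*, *Qrfpr*, *Gm30094* and *C1qtnf7* had 1 UMI each against 46 to 69, and *Rspo2*, a Wnt pathway agonist, had 2 against 116. The list thus held a G protein, a peptide, the peptide receptor *Qrfpr* and secreted proteins.

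Peptide genes differed inside neuron.2. Of 17 measured, 8 were lower here and 0 higher. *Tac2*, the tachykinin neurokinin B, was at 7.72 CPM in WT and 3.64 in HET against 76.9 and 58.7 in subcluster 12, and *Sst*, *Penk* and *Tac1* had log2 ratios of -2.38, -1.53 and -2.32. *Grp*, *Calca*, *Gal* and *Nmu* were the other lower ones, at -4.13, -3.41, -2.47 and -6.17, whereas *Nts* at -0.43 and *Cck* at -0.16 were not called. *Tacr3*, the receptor for neurokinin B, was lower as well, at 1.1 and 1.82 CPM against 46.6 and 57.6.

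Channel and receptor subunits differed in both directions. *Scn9a*, the sodium channel Nav1.7, was at 403 CPM in WT and 563 in HET against 139 and 208 in subcluster 12, and *Scn3a* and *Scn3b* were lower with log2 ratios of -1.80 and -1.89. The fast potassium channels *Kcna1* and *Kcna2* were higher, at ratios of 1.70 and 1.26, and *Kcna4* and *Kcnc2* were lower, at -1.25 and -1.69. *Glra1* and *Gabra5* were higher by 1.41 and 1.49, and *Gabrg3*, *Gria1*, *Grin3a*, *Cacna1e* and *Grik1* were lower, at -2.34, -2.15, -1.59, -2.07 and -2.22. Among lineage factors, *Meis2*, *Pbx3*, *Nfia* and *Nfib* were higher, with ratios from 1.51 to 2.31, and *Tlx3*, *Ebf2* and *Ebf3* were lower, at -2.24, -1.82 and -1.35. The neurofilament genes *Nefm* and *Nefh*, found in large axons, were higher by 1.13 and 1.51.

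Of the 7 Purkinje cell genes, 5 were measured against subcluster 12 and 4 were lower here, among them *Car8* at 0.552 CPM in WT and 1.82 in HET against 26.4 and 33.9. In the fibroblast list, subcluster 12 summed to 187 and 186 CPM against 17.7 and 27.3 here, and nearly all of that came from *Bnc2*, at 175 and 178 CPM against 8.83 and 20.9. *Bnc2* is a zinc finger factor of fibroblasts that some neurons also use, and the defining fibroblast gene *Dcn* was at 5.05 and 3.39 CPM in subcluster 12 and 5.52 and 2.73 here.

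Across all genes the profile of these nuclei was nearer to several subclusters of neuron.1 than to subcluster 12. Over 16318 genes with at least 200 UMIs, the Pearson correlation of log2(CPM + 1) was 0.955 with neuron.1:9, 0.947 with neuron.1:0 and 0.935 with subcluster 12, and the WT nuclei correlated at 0.949 with the HET nuclei of the same set. These values are across genes, which are not independent replicates, and describe profiles that share libraries and differ in their number of nuclei. Over the 70 genes of the lineage factor, Hox and peptide lists the order changed: subcluster 12 was the nearest at 0.882, followed by neuron.1:0 at 0.817 among the neuronal clusters.

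Several leading genes had the same second location outside neuron.2. *Maf* was next highest in neuron.3:27 at 680 CPM, *Ebf1* in neuron.3:27 at 1345, *Kcnh8* in neuron.1:24 at 148, *Atp10a* in neuron.6:22 at 123 and *Sntb1* in neuron.3:27 at 27.2. The small subcluster neuron.3:27, of 13 WT and 100 HET nuclei, thus shared *Maf*, *Bmp6* and part of *Ebf1* with these nuclei, but not *Nts* or *Prrxl1*.

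**Figure D3:**
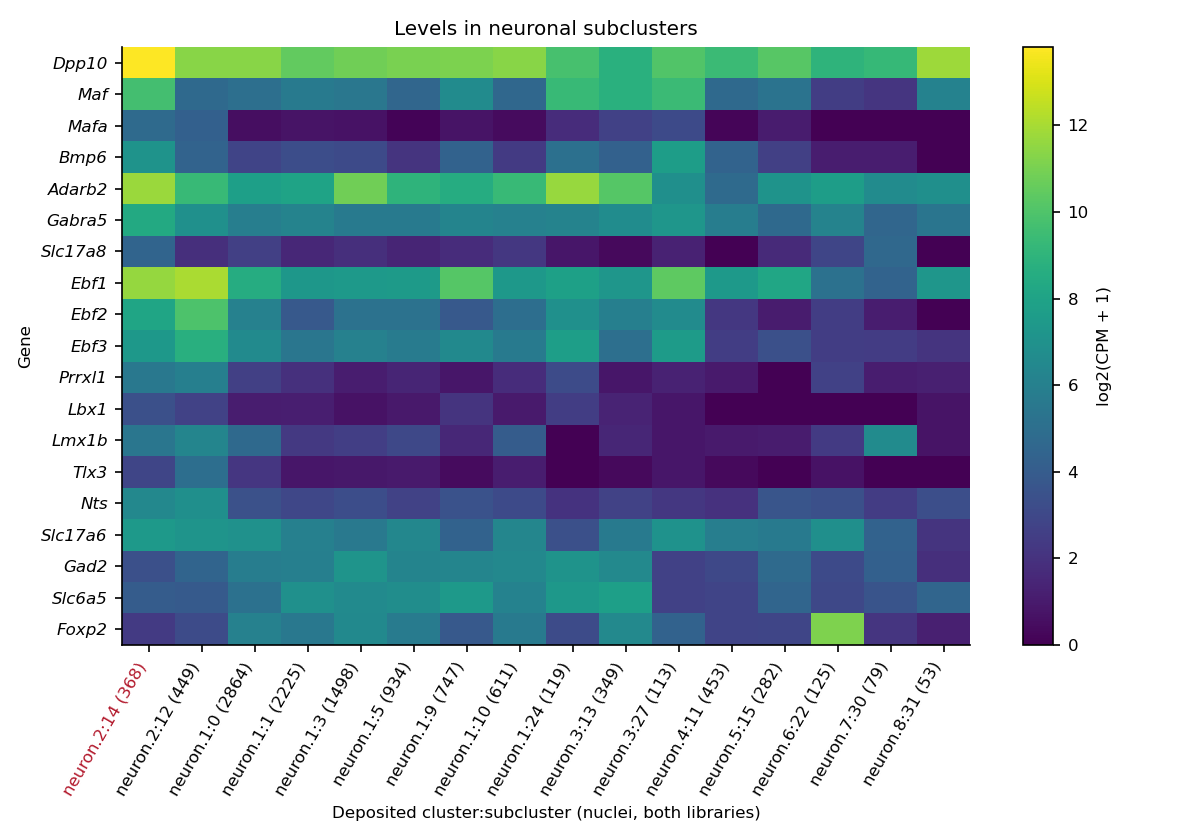
log2(CPM + 1) of 19 genes (rows) in the neuronal subclusters with at least 50 nuclei (columns, nuclei of both libraries pooled, number in brackets), with neuron.2 outside subcluster 12 in the first column (red label). *Dpp10* is brightest in the first column at 13146 CPM in WT and 16413 in HET, *Ebf1*, *Prrxl1* and *Nts* are bright in the first 2 columns, and *Foxp2* is dark in both.

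The nuclei were not uniform. A second deposited clustering, made on the uncorrected RNA counts, did not recover them as a single group. It split them mainly into RNA cluster 4 with 156 nuclei (92 WT and 64 HET), RNA cluster 1 with 135 (87 and 48), RNA cluster 0 with 33 (20 and 13) and RNA cluster 9 with 28 (27 and 1). Median UMIs differed between them, at 9291.5, 5120, 7420 and 2976. Depth moved with this split, and its part in the differences was not tested, but ratios between clusters were taken within each library.

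RNA cluster 0 stood apart. *Kcnip4*, a calcium-sensing subunit of Kv4 potassium channels, was at 7784 CPM in WT and 10374 in HET there, against 566 and 492 in RNA cluster 4 and 1166 and 1767 in RNA cluster 1. *Nts* was at 220 and 555 CPM against 35.1 and 18.0 in RNA cluster 4 and 160 and 48.6 in RNA cluster 1, and *Tnfaip8l3* was at 160 and 351 against 7.23 and 11.4 and against 35.5 and 20.3. In both libraries the 33 nuclei were above the rest for these 3 genes, as they were for *Adamtsl1* and *Ebf2*, at 580 and 821 CPM over both libraries against 20.2 and 185 in RNA cluster 4. *Penk* was at 119 CPM in WT and 34.0 in HET in RNA cluster 0, on 20 and 3 UMIs. It was at 12.4 and 21.3 in RNA cluster 4 and at 37.7 and 68.9 in RNA cluster 1.

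The same nuclei had less *Maf*, at 344 CPM in WT and 147 in HET, against 1039 and 683 in RNA cluster 4. *Dpp10* varied little between RNA clusters 4, 1 and 0, at 15523, 14056 and 14958 CPM, and *Slc17a6* was at 178, 182 and 144. In RNA cluster 9 *Dpp10* was lower, at 10872 CPM. Between RNA cluster 0 and clusters 4 and 1 together, 84 genes were higher and 150 lower by at least 2-fold in both libraries, on only 33 nuclei. These counts were made at a minimum of 100 UMIs. The number of genes compared is not given, so they have no share over all genes beside them.

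Between RNA clusters 4 and 1, 22 genes were higher and 19 lower by the same rule, also without a share over all genes. *Slc4a4*, a bicarbonate transporter, was at 168 CPM in WT and 224 in HET in RNA cluster 4 against 55.4 and 40.5 in RNA cluster 1, and *Gabra5* was at 371 and 438 against 239 and 199. *C1ql3*, a secreted synaptic protein, was on the other side at 77.4 and 60.5 against 310 and 134, and it was higher still in RNA cluster 0, at 492 and 396.

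By nucleus, *Nts* was found in 80 of 368 nuclei and *Tnfaip8l3* in 49. They met in 22 nuclei, where 10.7 would be shared if they were unrelated. *Maf* was found in 78.8% of the nuclei with *Nts* and in 95.5% of those without. These shares follow the split above and depend on depth, and no test was made over nuclei of 1 library.

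**Figure D4:**
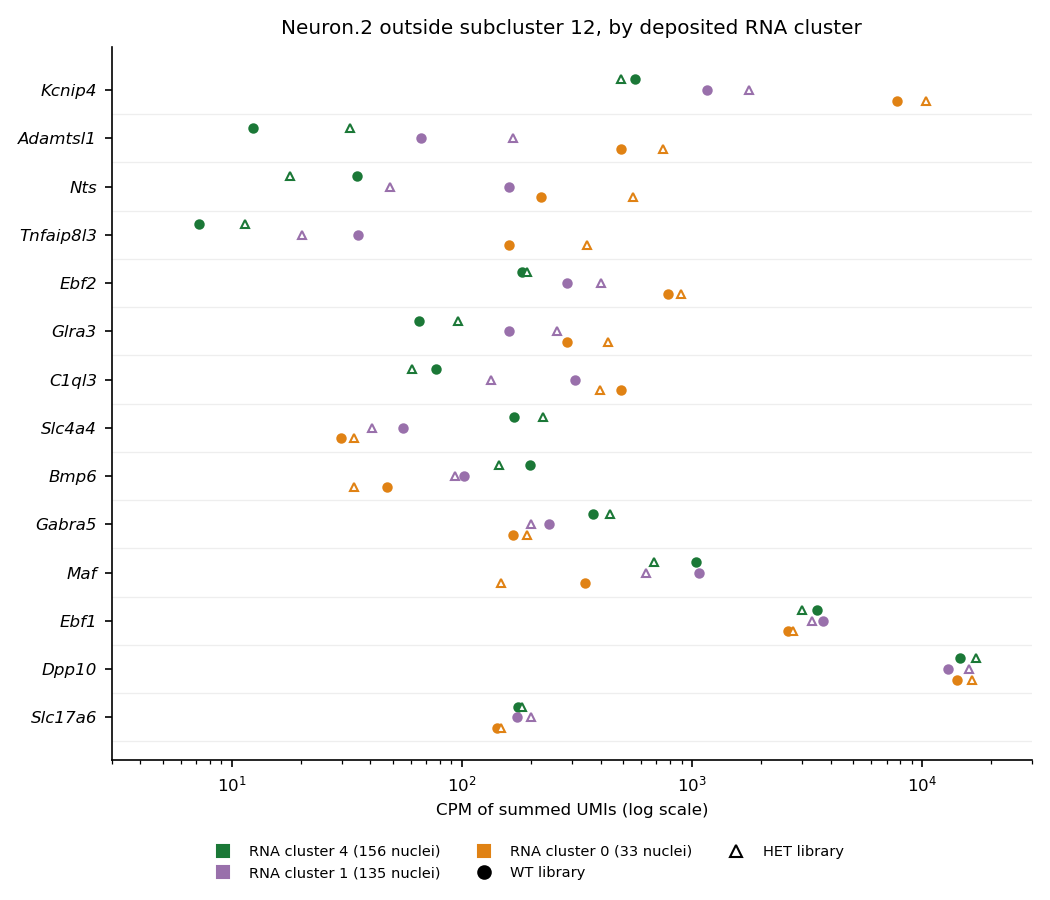
CPM of summed UMIs (log axis) in the 3 largest RNA clusters of neuron.2 outside subcluster 12, with circles for the WT and triangles for the HET library. RNA cluster 0 (orange) is right of the others for *Kcnip4*, *Adamtsl1*, *Nts*, *Tnfaip8l3* and *Ebf2* and left for *Bmp6* and *Maf*, while *Dpp10* and *Slc17a6* nearly coincide.

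Between the libraries, 277 of 11146 genes with at least 20 UMIs were at least 2-fold higher in HET (2.49%) and 632 at least 2-fold lower (5.67%), and 42.9% had a ratio above 1. Setting the median ratio of all genes to 0 gave 355 higher and 519 lower genes. The 2-fold differences whose interval left out a ratio of 1 numbered 214 higher and 443 lower. Of these, 184 and 428 had the same direction in the other neuronal nuclei, which came from the same 2 libraries. The share of all genes with the same direction in both sets is not given, so these 2 counts have no background beside them. *Scn1a* had a log2 ratio of 0.17 (0.03 to 0.31) in these nuclei and 0.20 in other neurons.

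*Ttr*, transthyretin, a secreted product of the choroid plexus, was among the 10 genes with the lowest ratios and had the most UMIs of them. It had 520 UMIs in WT, or 287 CPM, and 30 in HET, or 27.3 CPM, a log2 ratio of -3.39 (-3.98 to -2.86). The ratio was -3.02 in other neurons and -2.55 in subcluster 12. The thinned share of nuclei with *Ttr* was 19.2% here and 28.0% in oligodendrocyte nuclei, so its level here could not be told apart from background. The WT library held 108 nuclei of the choroid plexus cluster epend.2 and the HET library 6, and the part of that in the result was not tested.

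Ribosomal protein and oxidative phosphorylation genes had ratios mostly under 1. Of 80 measured ribosomal protein genes 77 had a ratio under 1 and 22 were at least 2-fold lower, with a median of -0.76 against -0.09 over all genes, and the median was -0.85 in other neurons and -0.81 in subcluster 12. Of 76 oxidative phosphorylation genes 73 had a ratio under 1 and 11 were at least 2-fold lower, with medians of -0.70, -0.60 and -0.61 in the same order. The median share of ribosomal UMIs per nucleus was 0.598% in WT and 0.352% in HET.

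The 12 measured Hox genes all had a ratio under 1, with a median of -0.67, but only *Hoxb2* was past 2-fold, at 35.9 CPM in WT and 17.3 in HET. In other neurons the Hox median was -1.24 over 18 genes, all under 1. Of 9 neuropeptide genes 8 had a ratio under 1 and 3 were at least 2-fold lower, and *Nppc*, one of these, was at 48.0 CPM in WT and 23.7 in HET, a log2 ratio of -1.02 (-1.71 to -0.37). All 10 measured GABA-A receptor subunits had a ratio above 1, with a median of 0.20, and the median was 0.18 in other neurons. None of those 10 was past 2-fold. Beside these lists, 42.9% of all genes had a ratio above 1 and 5.67% were at least 2-fold lower.

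The genes with the largest ratios rested on few UMIs. *Gm16892*, an antisense gene inside *Tbc1d23*, went from 2 UMIs in WT to 23 in HET, a log2 ratio of 4.25 (2.23 to 7.38), and was also higher in other neurons at 2.82. *Zim1*, an imprinted zinc finger gene, had 3 and 19 UMIs, *Dpp4*, a peptidase, had 3 and 17, and *Gpr171*, a G protein-coupled receptor, had 8 and 34. *Gm14325* had 6 and 22. The others, *D630008O14Rik*, *4930563I02Rik*, *Tex47*, *Chmp4c* and *Gm42609*, as well as *Dpp4* and *Gpr171*, overlap another gene on the opposite strand, and their reads are uncertain without a statement on strand.

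Among the genes lower in HET, *Slc1a7*, the glutamate transporter EAAT5, went from 32 UMIs to 1, a log2 ratio of -4.28 (-9.63 to -1.70), with -2.71 in other neurons. *Junb*, an immediate early gene, had 34 UMIs in WT and 2 in HET, with -1.95 in other neurons. Of the 5 measured immediate early genes 4 had a ratio under 1, 2 of them past 2-fold. Over all genes 42.9% had a ratio above 1 and 5.67% were at least 2-fold lower, and 5 genes are too few to read as a group. *Fndc10*, *Col11a2*, *Dnajc30*, *Gtf3c5* and *1700120C14Rik* had 19 to 32 UMIs in WT and 1 or 2 in HET. Of the 71 UMIs of *2600014E21Rik* 46 came from 1 nucleus, and of the 35 UMIs of *Hpse2* 15 came from 1 nucleus, and *Hpse2* had a ratio of 0.20 in other neurons. *Junb*, *Dnajc30*, *Gtf3c5*, *1700120C14Rik* and *2600014E21Rik* overlap another gene on the opposite strand.

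Of the 15 genes with the largest ratios over other neurons, 1 was past 2-fold between the libraries. This was *Mafa*, with 60 UMIs in WT and 18 in HET, or 33.1 and 16.4 CPM, a log2 ratio of HET over WT of -1.01 (-1.86 to -0.23) against -0.61 in other neurons. *Maf* was at a log2 ratio of HET over WT of -0.74 (-0.87 to -0.60) against -0.29 in other neurons, *Dpp10* was at 0.32 (0.29 to 0.35) against 0.10, and *Bmp6* was at -0.37 (-0.69 to -0.06) against 0.73. The other neurons differed in make-up between the libraries. Among them neuron.3:27, at 204 CPM of *Bmp6*, held 13 WT and 100 HET nuclei, and the part of this in the ratio was not tested. *Maf*, *Dpp10* and *Bmp6* were under 2-fold, and no test of the difference between these nuclei and other neurons was possible with 1 library per genotype. RNA cluster 9 held 27 WT nuclei and 1 HET nucleus, and without it 291 genes were higher and 590 lower.

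**Figure D5:**
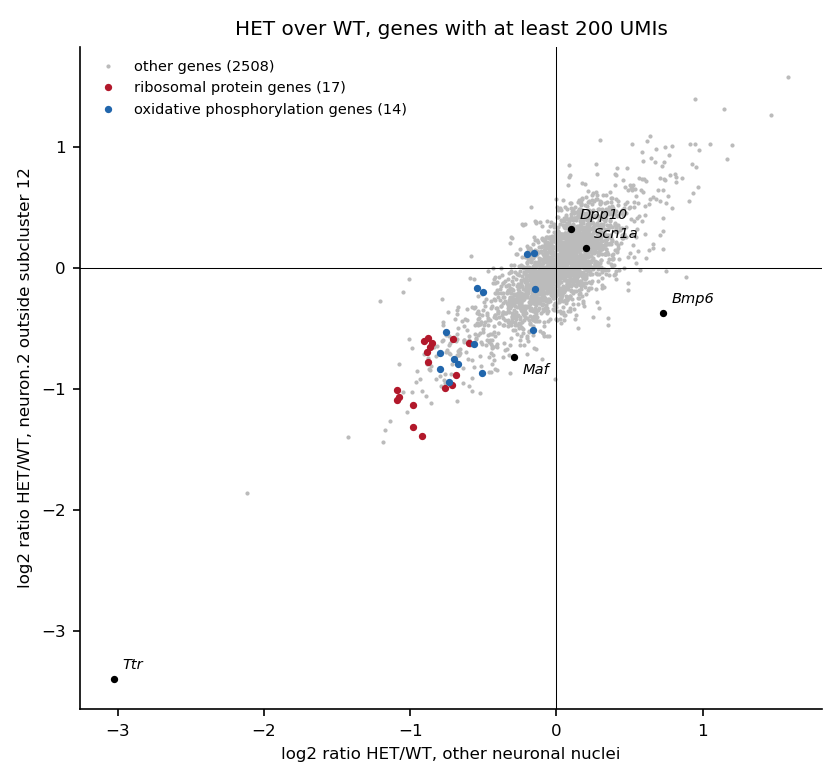
log2 ratio of HET over WT CPM in neuron.2 outside subcluster 12 (vertical) against the same ratio in other neuronal nuclei (horizontal), for genes with at least 200 UMIs; red points are ribosomal protein genes and blue points oxidative phosphorylation genes. *Ttr* is at the lower left at -3.39 and -3.02, the red points lie under 0 on both axes, and *Bmp6* lies at -0.37 and 0.73. Both axes come from the same 2 libraries, and the horizontal axis pools subclusters that were split unequally between them.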

How the data were processed

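Single nuclei of brainstem were profiled by droplet RNA sequencing in 1 WT and 1 HET library. Per the labels and the study's methods, the authors aligned reads with Cell Ranger (version not given) to mm10 and filtered and clustered nuclei in Seurat 4.1, keeping nuclei with at least 1000 genes and at most 15% mitochondrial reads and then removing mitochondrial, hemoglobin and other listed genes. The authors deposited raw UMI counts of 25556 genes in 18281 nuclei, all listed as singlets. The deposited metadata gave UMI and gene counts per nucleus, the percent of ribosomal and mitochondrial UMIs, a doublet score whose caller is not given in the sources used here, and the cluster, reference and library labels.

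UMIs were summed per library and divided by the library's total in that set of nuclei to give CPM (Python 3.11.15, numpy 2.4.6, scipy 1.17.1, pandas 2.3.3, matplotlib 3.10.9). A gene was called when it had at least 100 UMIs in both sets together (20 against subcluster 12 and for HET over WT) and differed at least 2-fold, in each library for the comparisons between nuclei. A set at 0 was given a floor of 3 counts. No test was made, since each genotype had 1 library and the clusters came from these counts. Intervals were exact at 95%, and shares with a UMI were also computed after thinning to 1000 UMIs per nucleus. The ratio calculation was tested on simulated data. Coordinates and overlaps were from GRCm38 (GENCODE vM21).

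Genes were named as the 15 largest and 10 smallest ratios against other neurons, the 10 at each end against subcluster 12 and for HET over WT (there with an interval that left out 1), the 5 of highest CPM, *Scn1a* and members of the gene lists. *Adarb2*, *Kcnip4*, *Adamtsl1*, *Slc4a4*, *C1ql3*, *Bnc2* and the second RNA clustering were picked after values were seen. The nuclei and the lists were chosen with earlier results of these data known. A few genes are not reported here.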

Additional observations from a re-analysis of the deposited data

Results flagged for a closer look

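In 16 of the 11146 genes (0.144%) the libraries differed at least 2-fold in these nuclei and in the opposite direction in the other neuronal nuclei, with both intervals leaving out a ratio of 1. The difference between the sets was not tested, since each genotype had 1 library. Subclusters of the other neurons were also split unequally between the libraries, such as neuron.1:1 with 1714 WT and 511 HET nuclei and neuron.5:15 with 33 and 249. The part of this in the ratios of the other neurons was not tested.

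Of these, 6 were lower in HET in these nuclei. *Rreb1*, a zinc finger factor, had the most UMIs of the 16, 99 in WT and 30 in HET, or 54.6 and 27.3 CPM, a log2 ratio of HET over WT of -1.0 (-1.64 to -0.40), whereas the other neurons were at 16.1 and 21.8 CPM, a ratio of 0.44. It overlaps *Gm46411* on the opposite strand. *Myt1*, a zinc finger factor of neural differentiation, had 37 and 4 UMIs, or 20.4 and 3.64 CPM, a ratio of -2.49 (-4.44 to -1.01), whereas the other neurons were at 30.3 and 34.5 CPM, a ratio of 0.19. *Sema3a*, a secreted axon guidance protein, was at -2.15 against 0.15 in other neurons, *Btg3* at -1.86 against 0.47, *Ppil3* at -1.28 against 0.34, and *Trp53*, the tumour suppressor p53, at -1.28 against 0.26.

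The other 10 were higher in HET in these nuclei, on 21 to 56 UMIs each. *Rpp14*, a subunit of ribonuclease P, was at 2.04 against -0.33 in other neurons, *Nxn* at 1.42 against -0.20, *Esr1*, an estrogen receptor, at 1.31 against -0.14, and *Gm50196* at 1.31 against -0.21. *Loxl2* and *Wdr1* were both at 1.26, against -0.30 and -0.20. *Triqk* was at 1.2, *Numbl* at 1.09, *Lins1* at 1.06 and *Polh*, a DNA repair polymerase, at 1.03, against -0.23, -0.42, -0.26 and -0.65.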

How the results depend on the processing

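The counts of genes depended most on the minimum of UMIs. Genes at least 2-fold higher in HET numbered 277, and 109, 531 and 1322 with the minimum doubled, halved and removed, and genes lower in HET numbered 632, and 311, 1006 and 1353. With no minimum, 590 genes were higher than in other neurons against 361, and with it doubled 42 of the 65 named genes could still be counted. By the mean over genes 1 list was at least 2-fold higher than in other neurons against 2 by the median. The remaining 77 counts stayed within 1.5 times. Setting the median ratio to 0 gave 422 higher and 683 lower genes against other neurons. Of 780 values of named genes under the alternatives 750 kept their call, 30 lost it and 0 changed sign. These genes were chosen for their large ratios, so a change of sign was unlikely. Alternatives chosen after seeing the data were leaving out barcodes found in both libraries, leaving out RNA cluster 9, and weighting neuronal subclusters equally, which gave 360 higher genes, 268 of them shared with the 361. No paired analysis was possible because each genotype had 1 library, so the groups shared fewer than 2 replicate numbers. Few UMIs limited the genes that differed between the libraries.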

Other observations

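Subcluster 18, 185 nuclei that the deposited labels place under the cluster name micro, was the second nearest to these nuclei over the 70 genes of the lineage factor, Hox and peptide lists, at a Pearson correlation of 0.841, and was at 0.928 over the 16318 genes. The value is across genes of profiles from the same libraries, and carries no test.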
